A study of Lytechinus variegatus with 9 samples.

Results

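The scavenger receptor cysteine-rich (SRCR) genes of the sea urchin *Lytechinus variegatus* were followed in whole pluteus embryos. Members were chosen by name: the description had to contain "scavenger receptor cysteine-rich" or "deleted in malignant brain tumors 1" (DMBT1). Of the 26814 genes in the count table, 125 carried such a name, and the 61 with a total of at least 30 counts over the 9 libraries were kept. Of the 64 others, 23 had no count in any library. The counts nearest to that minimum were 22, 24 and 27 for genes left out and 31, 35 and 63 for genes kept.

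Embryos of 3 separate matings were each divided over 3 treatments, which gave 3 libraries per treatment. The treatments were 1 µM K02288, a small molecule inhibitor of type I BMP receptors, 75 nM axitinib, a small molecule inhibitor of VEGF receptors, and the carrier DMSO as control, all in artificial seawater. The drugs were added at 18 to 20 hours post-fertilization (hpf), once the tri-radiate spicule rudiments had formed, and embryos were collected at 2 days post-fertilization (dpf) at 21°C. All groups are labelled wild type, and no group carried a transgene or a mutation. Each library is poly-A RNA of many pooled larvae of 1 mating, so a drug reached every tissue of the larva, and in such bulk samples fewer cells of a type and less RNA per cell cannot be told apart.

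The SRCR domain is a disulphide-bonded extracellular fold found in secreted and membrane proteins throughout the animals. In mammals, DMBT1 is a secreted mucosal glycoprotein that binds bacteria, M130 (CD163) is the macrophage receptor for haemoglobin bound to haptoglobin, and SSC5D is a soluble SRCR protein that binds bacteria. In the purple sea urchin, *Strongylocentrotus purpuratus*, the family is greatly expanded and many of its genes are expressed in coelomocytes, the immune cells of the adult, in sets that differ between individual animals. The names of the *L. variegatus* genes come from sequence similarity, and the ligands of the proteins were not measured here.

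Library totals ran from 9359212 to 11815263 counts. Levels are given as counts normalized by TMM over the 9 libraries, or as FPKM, which also divides by gene length, wherever genes are compared with each other. Summed marker genes showed the tissues of a whole larva in every library: skeletogenic (19 genes), pigment (13), blastocoelar immune (2), gut (43), muscle (11), neuronal (25) and ciliary (21) lists were all detected, and 1 gut gene was at 0. The skeletogenic sum was 35423 to 44353 normalized counts in K02288 libraries and 24311 to 34339 in axitinib libraries, against 46699 to 57363 in DMSO libraries. Libraries of the same mating resembled each other. The main fit had no mating term. A second one, blocked by mating and called the blocked fit here, is given beside it wherever the call differed.

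Of the 61 members, 40 were named DMBT1-like, 9 SRCR domain superfamily protein-like, 5 M130-like, 4 SSC5D-like and 3 group B protein-like. The annotation assigned the SRCR Pfam domain to 58 of them, and it was the only domain in 49. A WSC domain was also annotated in 5 members, sushi repeats in 3, and CUB and zona pellucida domains in 2 each. The genes lay on 15 chromosomes, with 21 on chromosome 2, and 22 of them formed 10 runs of neighbours no more than 200 kb apart. Such genes can be similar in sequence, and reads from near-identical copies may have been assigned to either copy by the authors' counting, which makes the levels of neighbouring copies uncertain.

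A single gene dominated the family. LOC121429458, a group B protein-like gene on chromosome 16 (4820128 to 4838465), averaged 1049 FPKM over the 9 libraries, which placed it at rank 63 of all genes, and its level was 19.4-fold that of the next member. It supplied 53.3 to 61.7% of the family's normalized counts in K02288 libraries and 54.4 to 62.4% in axitinib libraries, against 35.6 to 46.5% in DMSO libraries. The members that followed in FPKM were the DMBT1-like genes LOC121406844 with 54.0, LOC121428500 with 43.1 and LOC121422892 with 42.3. Over the family, 12 members averaged at least 10 FPKM, 26 lay between 1 and 10, and 23 were below 1, with a median of 2.57. Low levels were counted from few reads, and 13 members had fewer than 100 counts in all libraries together.

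**Figure D1:**
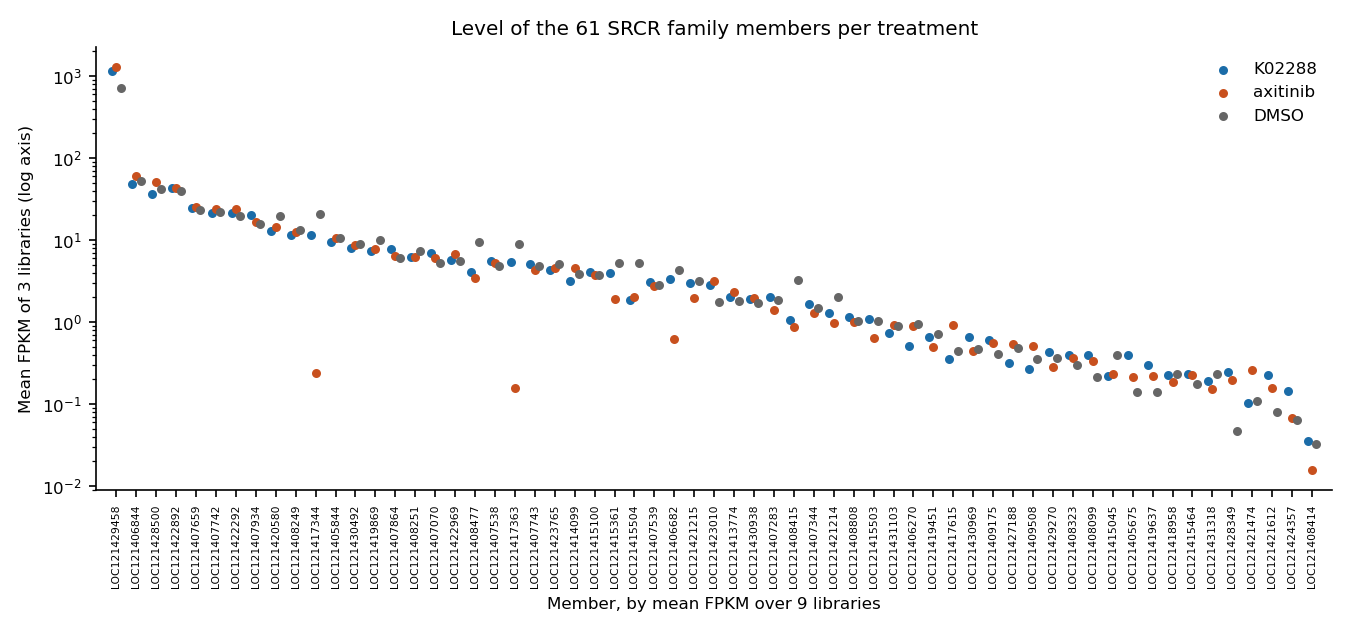
Mean FPKM of each of the 61 members in K02288, axitinib and DMSO libraries (3 libraries each, log axis), ordered by the mean over all 9 libraries. LOC121429458 stands above 700 FPKM in every treatment, while the axitinib points of LOC121417344, LOC121417363 and LOC121406682 lie far below their K02288 and DMSO points.

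To ask how the family responded to loss of VEGF receptor signalling, axitinib and DMSO libraries were compared. Of 49 members that passed the filter on low counts, 10 changed at an unadjusted p of at most 0.05, 2 higher and 8 lower in axitinib. Over all 16035 genes tested, 4.85% passed the same threshold, 1.77% higher and 3.07% lower. In the blocked fit, 17 members passed it, against 17.8% of all genes, and 12 had an adjusted p under 0.05, 2 higher and 10 lower, where the background was 6.22%, 2.79% higher and 3.44% lower. The median log2 fold change of the members was -0.04, against 0.01 over all genes, so the members were spread about 0 and the changes were those of individual genes. Without the blocking factor, LOC121417344 and LOC121417363 had an adjusted p under 0.05 by edgeR (background 0.125%). DESeq2 gave 7 such members, and its share over all genes was not counted, so the edgeR background does not apply to it.

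LOC121417344, an SRCR domain superfamily gene on chromosome 6 (30152138 to 30166981), was nearly lost in axitinib. Its raw counts in matings 1, 2 and 3 were 7, 5 and 7 in axitinib libraries, against 612, 377 and 684 in DMSO libraries. The groups were far apart in every mating. Normalized counts averaged 6.72 ± 1.48 in axitinib and 572 ± 208 in DMSO (SD, n = 3 each), and the summed counts gave a ratio of 83.3 for DMSO over axitinib (exact 95% interval 53.2 to 139, counting error only). The log2 fold change was -6.39 ± 0.41 (SE; edgeR, adjusted p = 0.00351), and it stayed between -6.66 and -6.19, with an adjusted p under 0.05, when each of the 6 libraries was left out.

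LOC121417363 carries the same name and lies on the same chromosome (31236266 to 31252131), 1069 kb away and on the opposite strand. It was nearly lost likewise. Its raw counts were 8, 2 and 1 in axitinib libraries, against 181, 170 and 298 in DMSO libraries, and the groups did not overlap. The ratio of summed counts for DMSO over axitinib was 55.8 (exact 95% interval 31.0 to 112), and the log2 fold change was -5.78 ± 0.62 (SE; edgeR, adjusted p = 0.0278). Because single counts set the axitinib level, the fitted value ran from -7.01 without axitinib replicate 1 to -5.38 without axitinib replicate 3, and the adjusted p remained under 0.05 in 1 of the 6 main fits, the one without axitinib replicate 1, and in 6 of 6 blocked fits. For both genes the best protein match given in the table was the starfish SRCR domain superfamily protein. How far reads of the one could have been assigned to the other was not tested.

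The genes between this pair were counted as well. Of these 28 genes, 19 were tested in axitinib. In the blocked fit 1 of those had an adjusted p under 0.05, a count near the background of 6.22% of all genes. It was an uncharacterized gene, LOC121417708, with a log2 fold change of -1.07 (edgeR, adjusted p = 0.00274). Each of the pair has a sorting nexin-33-like gene next to it, LOC121417345 beside LOC121417344 and LOC121417362 beside LOC121417363, named here after their values were seen. Their log2 fold changes in axitinib were -0.32 ± 0.23 and -0.03 ± 0.20 (SE; edgeR, blocked, adjusted p = 0.552 and 0.963). The skeletogenic marker sum was also lower in axitinib, by 0.76 on the log2 scale, and its part in these results was not tested.

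LOC121406682, a DMBT1-like gene on chromosome 1 (14324009 to 14338859), was the next most reduced. It had 16.8, 38.2 and 13.4 normalized counts in axitinib libraries, against 140.2, 183 and 149 in DMSO libraries. The highest axitinib library was well below the lowest DMSO library. This gave a log2 fold change of -2.77 ± 0.42 (SE; edgeR, adjusted p = 0.0691, unadjusted p = 0.000193), and of -2.83 in the blocked fit (adjusted p = 5.69e-06).

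LOC121415361 on chromosome 5 (12126034 to 12166567) is named DMBT1-like, but its best protein match was pig M130, and it alone among the members carried an immunoglobulin I-set domain. Normalized counts in axitinib libraries were 95.5, 166 and 203, against 316, 474 and 508 in DMSO libraries. The level was lower in axitinib in each mating, and no library of one group reached the other. The fitted log2 change was -1.48 ± 0.31 (SE; edgeR, unadjusted p = 0.00167, adjusted p = 0.278), and the blocked fit had an adjusted p of 5e-06.

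A pair of adjacent DMBT1-like genes on chromosome 9, LOC121421214 (3828539 to 3860622) and LOC121421215 (3863309 to 3895625), were lower in axitinib as well. LOC121421214 had 63.0, 48.3 and 98.0 normalized counts in axitinib libraries, against 112, 102 and 223 in DMSO libraries (log2 fold change -1.06, unadjusted p = 0.0313). That call held in 3 of 6 fits with a library left out, and the value was -0.61 without DMSO replicate 3. Its blocked adjusted p was 0.0035 by edgeR, and 0.0772 without DMSO replicate 3. LOC121421215 had 209.9, 79.5 and 253 normalized counts in axitinib libraries, against 259, 214 and 406 in DMSO libraries, so the groups overlapped, and only the blocked fit called it (log2 fold change -0.77, edgeR, adjusted p = 0.0169). This adjusted p was 0.1002 without DMSO replicate 2 and 0.0819 without axitinib replicate 2, where the log2 fold change was -0.50 in each, and 0.0576 without DMSO replicate 3.

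To ask how the family responded to loss of BMP signalling, K02288 and DMSO libraries were compared. Of 50 members tested, 6 changed at an unadjusted p of at most 0.05, 2 higher and 4 lower, against a background of 2.45% of 16288 genes, 1.22% higher and 1.23% lower. In the main fit 0 members had an adjusted p under 0.05 by edgeR (background 0.00614%), limma likewise gave 0 and DESeq2 gave 1, while the counts at an unadjusted p of at most 0.05 were 6, 5 and 7. Shares over all genes were not counted for limma or DESeq2. In the blocked fit, 15 members reached that unadjusted threshold (background 13.2%), and 7 had an adjusted p under 0.05, 1 higher and 6 lower (background 2.88%, 1.83% higher and 1.05% lower). The median log2 fold change over the members was -0.04, against 0.01 over all genes. The main count was 4 without DMSO replicate 1, DMSO replicate 3 or K02288 replicate 2, and 9 without DMSO replicate 2. Shares over all genes were not counted for these fits. The K02288 and axitinib comparisons used the same DMSO libraries, and a high or low DMSO library moves both.

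The 6 members called with K02288 were LOC121408415, LOC121415504, LOC121420580, LOC121417344, LOC121429458 and LOC121423010, and each was also called with axitinib in the same direction. Both comparisons used the same DMSO libraries, and such an overlap was not counted over all genes, so it is no result about the family. LOC121408415, a DMBT1-like gene on chromosome 2 (55894632 to 55913245), had the largest fall. It had 44.2, 52.6 and 15.0 normalized counts in K02288 libraries and 28.3, 32.2 and 31.2 in axitinib libraries, against 111, 142 and 90.1 in DMSO libraries. Every drug library was below every DMSO library. The log2 fold change was -1.62 ± 0.46 in K02288 (SE; edgeR, unadjusted p = 0.00851, blocked adjusted p = 0.00156) and -1.90 ± 0.29 in axitinib (unadjusted p = 0.00022, blocked adjusted p = 0.000178).

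LOC121415504, another DMBT1-like gene, lies on chromosome 5 (14045272 to 14073131). Its normalized counts were 212, 93.8 and 200.1 in K02288 libraries and 194, 157 and 190.4 in axitinib libraries, against 709.9, 297 and 393 in DMSO libraries. The drug levels lay close together while the DMSO levels were spread widely, with mating 1 highest. On the log2 scale the change was -1.47 ± 0.41 in K02288 and -1.37 ± 0.32 in axitinib (SE), and without DMSO replicate 1 these were -1.04 and -0.94. The blocked adjusted p by edgeR was 5.51e-05 in K02288 and 0.000163 in axitinib.

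LOC121420580 on chromosome 8 (2087842 to 2110990) fell less. It had 717, 1076 and 1089.7 normalized counts in K02288 libraries and 894, 1114 and 1188 in axitinib libraries, against 1558, 1483 and 1308 in DMSO libraries. All drug libraries were below the DMSO libraries. Fitted log2 changes were -0.60 in K02288 (unadjusted p = 0.0157) and -0.44 in axitinib (unadjusted p = 0.0243), and the axitinib call held in 3 of 6 fits with a library left out, with -0.33 without axitinib replicate 1. The blocked adjusted p was 0.0129 in K02288 and 0.032 in axitinib by edgeR. It depended on mating 1, since without DMSO replicate 1 it was 0.0609 in K02288 and 0.265 in axitinib, without K02288 replicate 1 it was 0.0589, and without axitinib replicate 1 it was 0.288.

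LOC121417344 was also lower with K02288, though by far less than with axitinib. Normalized counts were 421, 285 and 260.2 in K02288 libraries, against 665, 333 and 716 in DMSO libraries, so the groups overlapped although the level was lower in each mating. The log2 fold change was -0.83 ± 0.32 (SE, unadjusted p = 0.0348). This call held in 2 of 6 fits with a library left out, and the value was -0.63 without DMSO replicate 3. The blocked value was -0.79 (edgeR, adjusted p = 0.0151), and it was -0.45 without DMSO replicate 3 (adjusted p = 0.0908) or K02288 replicate 3 (adjusted p = 0.0826). Its partner LOC121417363 had 122, 106 and 177 normalized counts in K02288 libraries, against 197, 150.3 and 312 in DMSO libraries, with a log2 fold change of -0.71 that missed the threshold in the main fit (unadjusted p = 0.0655) and passed in the blocked fit (edgeR, adjusted p = 0.0193). Without DMSO replicate 3 the values of LOC121417363 were -0.36 in the main fit and -0.59 in the blocked fit (adjusted p = 0.160), and without K02288 replicate 3 the blocked adjusted p was 0.121.

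The DMBT1-like gene LOC121408477 on chromosome 2 (58609378 to 58627168) depended on mating 1. It had 227, 109 and 94.9 normalized counts in K02288 libraries and 155, 116 and 91.3 in axitinib libraries, against 687, 126 and 169.6 in DMSO libraries, where mating 1 stood apart. Its blocked log2 fold change was -0.95 in K02288 (edgeR, adjusted p = 0.0146) and -1.13 in axitinib (adjusted p = 0.0184), while the main fit did not call it (unadjusted p = 0.112 and 0.0503). Without DMSO replicate 1 the blocked values became -0.53 (adjusted p = 0.169) and -0.51 (adjusted p = 0.295), and those of the main fit -0.05 and -0.30. Without K02288 replicate 1 the blocked adjusted p was 0.102, and without axitinib replicate 1 it was 0.235.

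In contrast to these falls, the dominant member LOC121429458 rose with both drugs. Its normalized counts were 26227, 28055 and 22827 in K02288 libraries and 27670.0, 31373 and 26704 in axitinib libraries, against 14657, 16457 and 16248 in DMSO libraries. Every drug library exceeded every DMSO library, and the means were 1.63-fold and 1.81-fold that of DMSO in K02288 and axitinib. On the log2 scale this was 0.70 ± 0.13 in K02288 (SE; edgeR, unadjusted p = 0.00075, blocked adjusted p = 0.000664) and 0.86 ± 0.12 in axitinib (unadjusted p = 0.000121, blocked adjusted p = 3.31e-05). The unadjusted call held in all 6 fits of each comparison with a library left out. The blastocoelar immune marker sum rests on 2 genes. Its mean was also higher in both drugs, by 0.81 in K02288 and 0.80 in axitinib on the log2 scale. Its groups overlapped, with 1094 to 3626 normalized counts in K02288, 1213 to 3561 in axitinib and 873 to 1572 in DMSO libraries. Mating 3 was highest under every treatment. The part of this sum in the result for LOC121429458 was not tested.

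The summed family stood higher in both drugs, at 42842 to 47196 normalized counts in K02288 libraries and 47365 to 50826 in axitinib libraries, against 35214 to 41136 in DMSO libraries. Without LOC121429458 the sums overlapped, with 17441 to 20970 in K02288 libraries and 18905 to 23156 in axitinib libraries, against 18954 to 26479 in DMSO libraries.

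The other member called higher, LOC121423010 on chromosome 10 (15201697 to 15228444), is a DMBT1-like gene of low level. It had 79.8, 91.9 and 84.5 normalized counts in K02288 libraries and 71.4, 138 and 81.3 in axitinib libraries, against 44.6, 59.2 and 55.5 in DMSO libraries, and it was higher with each drug in all 3 matings. The log2 fold change was 0.68 in K02288 (unadjusted p = 0.032) and 0.86 in axitinib (unadjusted p = 0.0334), but these calls held in 1 and 2 of 6 fits with a library left out. The blocked adjusted p by edgeR was 0.148 in K02288 and 0.0495 in axitinib, and the axitinib call was lost in all 6 blocked fits with a library left out. Without axitinib replicate 2 the axitinib value of the main fit was 0.51.

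**Figure D2:**
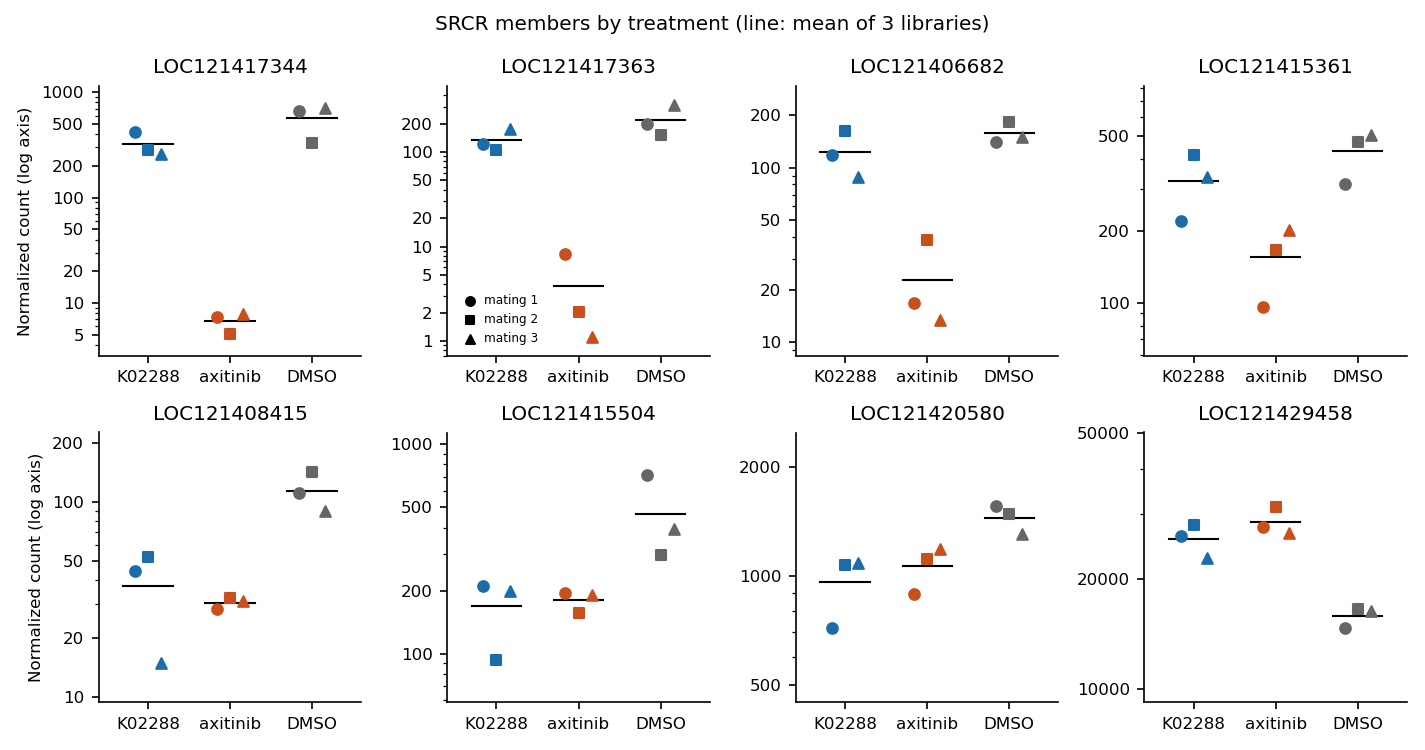
Normalized counts (log axis) of 8 members in K02288, axitinib and DMSO libraries, with 1 point per library, the marker shape giving the mating and the line the mean of 3 libraries. LOC121417344 and LOC121417363 are at 8.40 or below in every axitinib library, and among the 8 plotted LOC121429458 is the one whose drug libraries all lie above DMSO.

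The drugs were then compared directly. Of 49 members tested, 6 passed an unadjusted p of 0.05, 5 higher and 1 lower in K02288, against a background of 4.99%, 3.22% higher and 1.77% lower. An adjusted p under 0.05 was reached by 2 members (background 0.154%). In the blocked fit 14 passed the unadjusted threshold (background 19.6%), and 7 had an adjusted p under 0.05, 5 higher and 2 lower, against 8.16% of all genes, 5.06% higher and 3.1% lower. The members that separated the drugs most were those nearly lost in axitinib: LOC121417344 (log2 fold change 5.56, K02288 over axitinib, edgeR, adjusted p = 0.00522) and LOC121417363 (5.08, adjusted p = 0.0417). Leaving out a library kept the adjusted p of LOC121417363 under 0.05 in 1 of 6 main fits and in 6 of 6 blocked fits. LOC121406682 had 118, 162 and 88.3 normalized counts in K02288 libraries, against 16.8, 38.2 and 13.4 in axitinib libraries (log2 fold change 2.42, edgeR, unadjusted p = 0.000984, blocked adjusted p = 1.93e-05).

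LOC121415361 also kept more of its level in K02288, with 219, 415 and 337 normalized counts in K02288 libraries, against 95.5, 166 and 203 in axitinib libraries. Its log2 fold change was 1.07 (unadjusted p = 0.0147, and 0.0534 without K02288 replicate 2), and the blocked adjusted p was 0.00022 by edgeR. For LOC121406682 and LOC121415361 the log2 fold change in K02288 against DMSO was -0.36 ± 0.27 and -0.42 ± 0.28 (SE), with unadjusted p of 0.224 and 0.178. LOC121421215 was higher in K02288 than in axitinib in the blocked fit alone (log2 fold change 0.66, edgeR, adjusted p = 0.00803, against an unadjusted p of 0.235 in the main fit), and its blocked adjusted p was 0.0602 without K02288 replicate 3 and 0.0632 without axitinib replicate 3. The remaining members called in the main fit were LOC121407283, with a log2 fold change of 0.54 (unadjusted p = 0.0254), and LOC121421474, a DMBT1-like gene of very low level named here after its values were seen, with -1.32 (unadjusted p = 0.0339). Neither was among the members with an adjusted p under 0.05 in the blocked fit.

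A pair of highly expressed DMBT1-like genes went the other way. LOC121428500 on chromosome 15 (23016235 to 23050738) had 3154, 2954 and 4796 normalized counts in K02288 libraries, against 4345, 4553 and 6217 in axitinib libraries, and it was lower in K02288 in each mating. The groups overlapped, and only the blocked fit called it (log2 fold change -0.49, edgeR, adjusted p = 0.000578, against an unadjusted p of 0.0763 in the main fit). Neither drug differed from DMSO for this gene at a blocked adjusted p under 0.05, with 0.48 in K02288 and 0.313 in axitinib. LOC121406844 was also lower in K02288 in each mating, with a blocked log2 fold change of -0.32 (edgeR, adjusted p = 0.0133). Its adjusted p was 0.145 without K02288 replicate 1 and likewise without axitinib replicate 1.

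For LOC121408415, LOC121415504 and LOC121420580, called lower with both drugs in the main fit, the direct comparison passed no threshold, unlike that of LOC121417344. The log2 fold change of K02288 over axitinib was 0.28 ± 0.51, -0.10 ± 0.32 and -0.15 ± 0.21 (SE) for these 3 genes, with unadjusted p of 0.591, 0.765 and 0.492. For LOC121429458 it was -0.15 ± 0.13 (unadjusted p = 0.261).

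**Figure D3:**
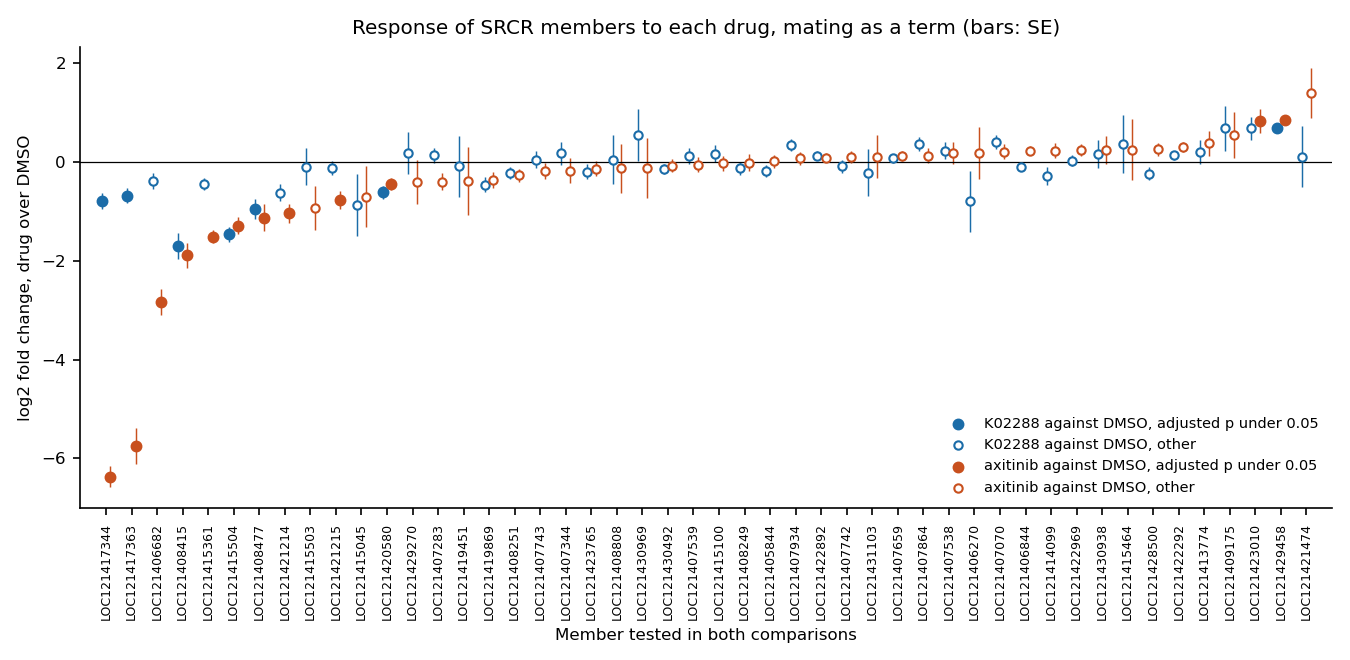
log2 fold change of the 48 members tested in both comparisons, K02288 over DMSO and axitinib over DMSO, from the fit with the mating as a blocking factor; bars are SE and filled points have an adjusted p under 0.05. Most members lie near 0 with either drug, and LOC121417344 and LOC121417363 stand at -6.37 and -5.75 in axitinib.

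By name, the members called with axitinib (blocked fit, adjusted p under 0.05) were 9 of 33 DMBT1-like genes tested, 2 of 7 superfamily genes and 1 of 2 group B genes, where 6.22% of all genes were called. No call fell among the 4 M130-like and 3 SSC5D-like genes tested with axitinib, numbers too small for a contrast between names. Between -0.5 and 0.5 on the log2 scale lay 36 members in K02288 and 33 in axitinib. Genes outside the family were counted in the same fit. Of 122 genes with the SRCR Pfam domain but another name, 53 were tested in axitinib, and 2 were higher and 6 lower. In K02288, where 2.88% of all genes were called, 55 were tested, and 2 were higher and 2 lower. In the main fit at an unadjusted p of at most 0.05, with backgrounds of 4.85% in axitinib and 2.45% in K02288, they gave 1 higher and 5 lower in axitinib, and 3 higher and 2 lower in K02288. A further 122 immune recognition genes comprised Toll-like and NLR receptors, class scavenger receptors, mannose receptors, peptidoglycan recognition proteins, ficolins and complement. In the blocked fit 5 of the 44 tested were higher and 1 was lower in axitinib, and 2 of 43 were higher and 0 lower in K02288. Their main fit gave 2 higher and 1 lower in axitinib, and 0 higher and 1 lower in K02288.

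Differences between the matings involved more members than either drug did. The order was the same over all genes, where 6.22% were called in axitinib and 2.88% in K02288 (blocked fit, adjusted p under 0.05). The mating test used 9 libraries and each drug test 6, so the counts come from unlike tests. Of 55 members tested over the 9 libraries with treatment as a term, 39 differed between matings at an adjusted p under 0.05 (edgeR), against 52.7% of 16866 genes. Of these members, 4 had fewer than 30 counts outside the mating in which they were highest, so that they entered the family through that mating, and without them 35 of 51 (68.6%) differed. The same test called 30 of 58 genes with the SRCR Pfam domain but another name (51.7%). Of the other immune recognition genes it called 31 of 49 (63.3%). The median range between the highest and lowest mating mean was 0.79 on the log2 scale for the members and 0.56 for all genes. As fitted, the median range was 0.80 for the members, 0.80 and 0.81 for these lists, and 0.57 for all genes. Ranges are wide where counts are few, and among genes averaging at least 100 normalized counts the medians were 0.65 for 32 members and 0.44 for all. A range of at least 1, or 2-fold, was seen in 20 of 55 members (36.4%), against 23.9% of all genes. Among genes averaging at least 100 normalized counts it was seen in 5 of 32 members (15.6%), against 11.8% of all. No mating was highest throughout. The 39 members were highest in mating 1 in 17 cases, in mating 2 in 9 and in mating 3 in 13 (43.6, 23.1 and 33.3%), against 32.0, 34.2 and 33.8% of all genes called. The highest mating was the same under all 3 treatments in 27 of the 39. This was not counted over all genes called, so it is no result about the family.

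The mating accounted for a median of 65.3% of a member's variation in log2 CPM, and for more than the treatment in 39 of 55. Over all genes its median share was 58.5%, and it exceeded the treatment in 76.1%. The median share of the treatment was 14.8% for the members and 14.8% for all genes. Treatment took over 50% in 12 members, LOC121417344 (98.2%), LOC121417363 (95.4%), LOC121429458 (93.1%) and LOC121406682 (90.1%) leading. That count was not made over all genes, so it is no result about the family. Each mating supplied 1 library per treatment, and whether parents, culture or collection differed between the matings cannot be told apart. The blastocoelar immune marker sum was 873 to 1217 normalized counts in mating 1, 994 to 1295 in mating 2 and 1572 to 3626 in mating 3, and its part in these differences was not tested.

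**Figure D4:**
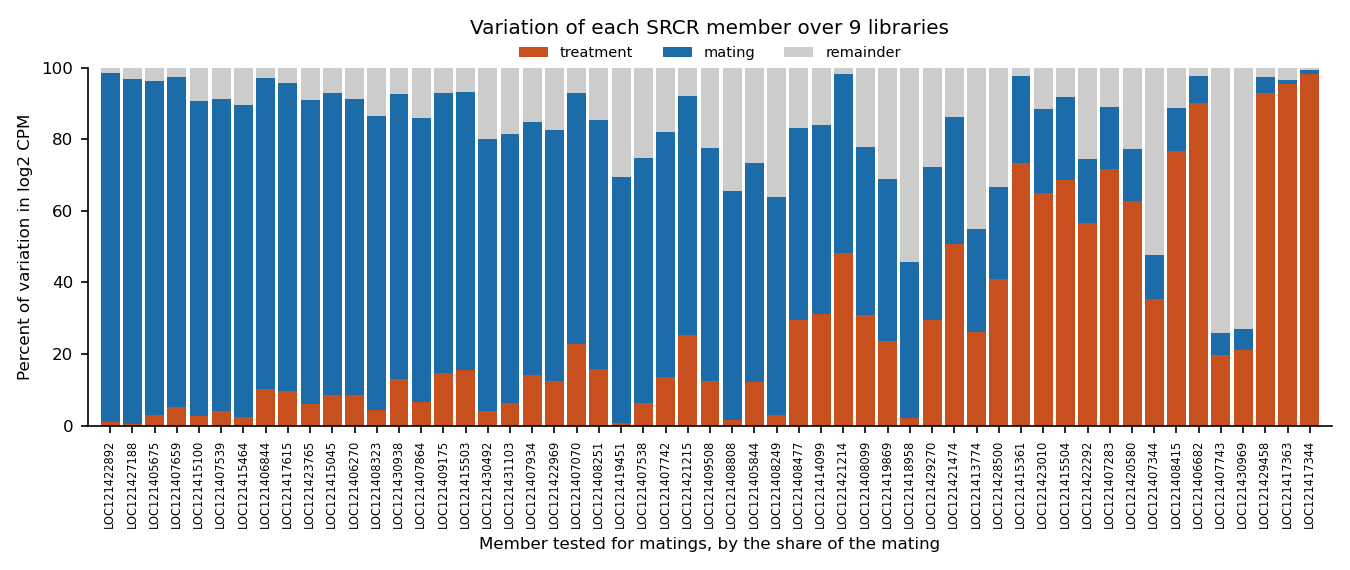
Share of the variation in log2 CPM over 9 libraries that went with treatment, mating and the remainder, for the 55 members tested, ordered by the share of the mating. LOC121422892 has the highest mating share (97.5%) and LOC121417344 the highest treatment share (98.2%).

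LOC121422892, a DMBT1-like gene on chromosome 10 (30593176 to 30639203), had the lowest p. In K02288, axitinib and DMSO libraries it had 3792, 3997 and 3542 normalized counts in mating 1, 1948, 2060.0 and 1888 in mating 2, and 1661, 1355 and 1383 in mating 3. The matings did not overlap whatever the treatment, with means of 3777 ± 228, 1965 ± 87.3 and 1466 ± 169 (SD over treatments). The range was 1.37 on the log2 scale, or 2.58-fold (edgeR, adjusted p = 6.46e-09). Its neighbours in the same run behaved otherwise. LOC121422292 averaged 1263 ± 12.7, 1148 ± 153 and 1151 ± 205 in matings 1, 2 and 3 and did not differ past the threshold (adjusted p = 0.3), while LOC121422969 was highest in mating 3, with 818 ± 120.3, and lowest in mating 2, with 534 ± 45.9.

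On chromosome 2, the run of LOC121408249, LOC121406844 and LOC121408251 (49378661 to 49429784) was highest in mating 1 for all 3 genes. LOC121406844 averaged 4081 ± 581 in mating 1, 2682 ± 292 in mating 2 and 2117 ± 279 in mating 3, a range of 1.92-fold (edgeR, adjusted p = 5.58e-07). LOC121408249 averaged 352 ± 71.9, 268 ± 57.3 and 233 ± 6.49, and LOC121408251 405 ± 53.6, 280.3 ± 50.5 and 284 ± 16.96, in matings 1, 2 and 3. The M130-like gene LOC121415100 on chromosome 5 was also highest in mating 1, with 335 ± 26.7, 213 ± 53.8 and 131 ± 17.6 (adjusted p = 1.74e-05), as did the DMBT1-like LOC121407659 with 926 ± 49.2, 853 ± 40.5 and 664 ± 32.1.

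Other abundant members were lowest in mating 2. LOC121407864, a DMBT1-like gene, averaged 317 ± 19.2 in mating 1, 169 ± 38.1 in mating 2 and 411 ± 134 in mating 3 (edgeR, adjusted p = 6.07e-05). The SSC5D-like LOC121407934, whose best protein match was neurotrypsin, a secreted serine protease with SRCR domains, averaged 761 ± 108, 494 ± 56.5 and 871 ± 229.6. LOC121421215 had 248 ± 33.9, 146 ± 67.2 and 362 ± 94.7, and its neighbour LOC121421214 was likewise highest in mating 3, at 150.2 ± 65.0. In contrast, the M130-like LOC121407742 was lowest in mating 1, with 286 ± 33.8, 312 ± 35.7 and 382 ± 21.5 in matings 1, 2 and 3, while the SSC5D-like gene beside it, LOC121407743, was among the most even members, with 197 ± 27.3, 182 ± 42.9 and 189 ± 29.2 (adjusted p = 0.804).

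An adjacent pair on chromosome 5 went in opposite directions. LOC121415503 (14027216 to 14039404) averaged 10.4 ± 7.31 normalized counts in mating 1, 56.4 ± 13.7 in mating 2 and 23.97 ± 9.25 in mating 3 (edgeR, adjusted p = 0.00028). LOC121415504, on the other strand, averaged 372 ± 293, 183 ± 104 and 261 ± 114 (adjusted p = 0.0014). The gene highest in mating 2 thus lay beside one lowest in it, and of the pair LOC121415504 was called with the drugs and LOC121415503 was not. Over all 10 runs, 14 of 19 members tested differed between matings (73.7%), a share near the 70.9% of all members tested, and 6 runs had at least 2 such members, which shared the highest mating in 3 runs.

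Some members of low level were counted mainly in 1 mating. LOC121427188, LOC121405675, LOC121417615 and LOC121408323 reached the minimum of 30 counts only through it, and their values are a description with no test. LOC121427188 on chromosome 14 had 25, 43 and 39 counts in the K02288, axitinib and DMSO libraries of mating 1, 5, 5 and 3 in mating 2, and 2, 1 and 1 in mating 3. The ratio of mating 1 to mating 3 was 26.8, and entry to the family through mating 1 selects for a high ratio. LOC121405675 on chromosome 19, a superfamily gene, had 39, 18 and 15 counts in mating 2, 1, 2 and 0 in mating 1, and none in mating 3, so that mating 2 was at least 7.39-fold higher than mating 3, taking 3 counts per library as the limit for 0. LOC121417615 on chromosome 1, which joins a WSC domain to its SRCR domains, had 23, 48 and 22 counts in mating 2. It had 0, 1 and 1 in mating 3, a ratio of 42.8 under the same selection.

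Named after their values were seen, LOC121406270 on chromosome 19 had 23, 31 and 51 counts in mating 1, against 0, 4 and 4 in mating 2, and the SSC5D-like LOC121408323 had 36, 27 and 15 in mating 1, against 0, 1 and 6 in mating 2. Of these low members, LOC121427188, LOC121405675 and LOC121408323 did not pass the filter in any drug contrast, and the contrasts tested for LOC121417615 and LOC121406270 were not called.

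**Figure D5:**
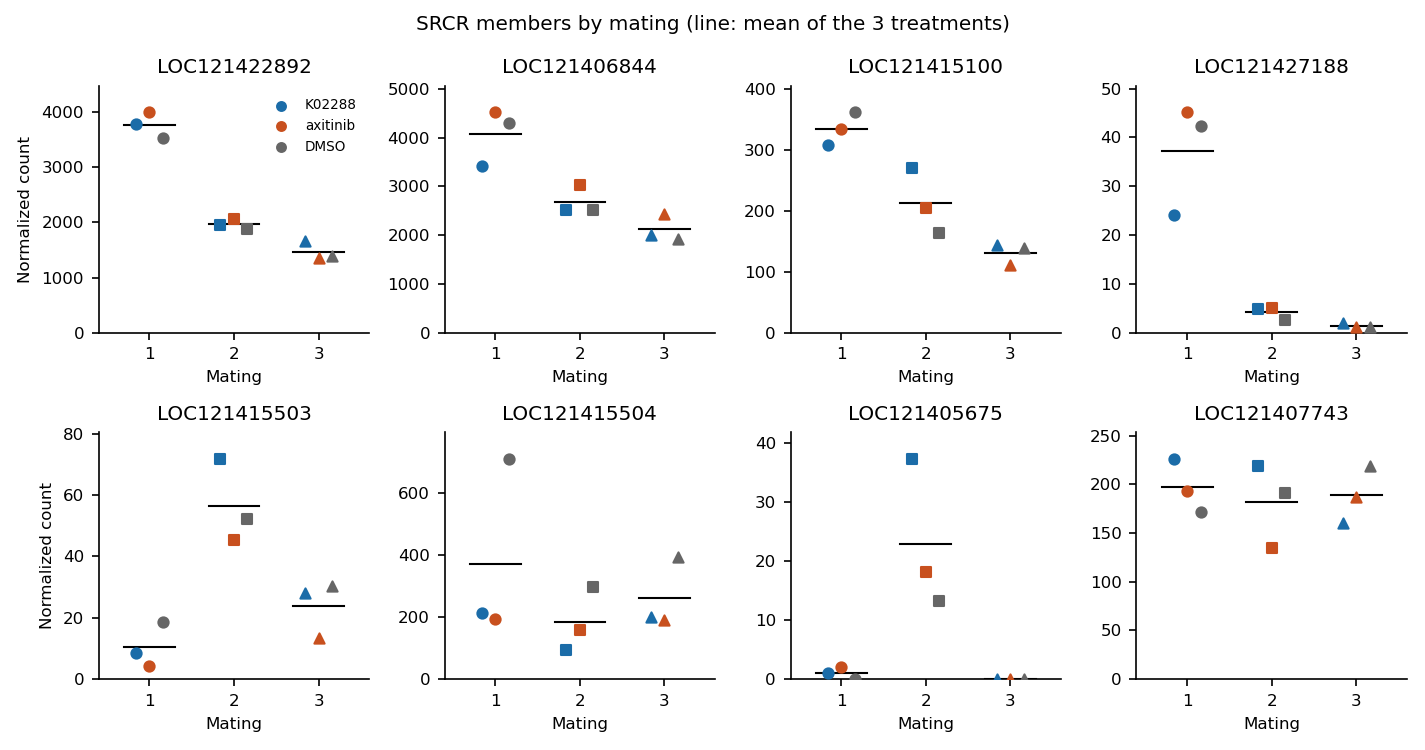
Normalized counts of 8 members by mating, 1 point per library, coloured by treatment, with the line at the mean of the 3 treatments. LOC121422892, LOC121406844 and LOC121415100 are highest in mating 1 under every treatment, LOC121415503 and LOC121415504 have their highest mean in different matings, and the means of LOC121407743 lie between 182 and 197.

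The most even abundant members over matings were LOC121407743, LOC121422292, LOC121429458, LOC121407283 and LOC121420580, with ranges of 0.13, 0.15, 0.18, 0.26 and 0.28 on the log2 scale and adjusted p between 0.138 and 0.804 (edgeR). This evenness depended on single libraries for some: LOC121420580 differed between matings without DMSO replicate 1 (adjusted p = 0.00338) or DMSO replicate 3 (adjusted p = 0.0357), and LOC121429458 without DMSO replicate 3 (adjusted p = 0.0344). With a library left out, the fitted range was 0.06 to 0.30 for LOC121407743, 0.05 to 0.26 for LOC121422292 and 0.10 to 0.49 for LOC121420580. Over all 9 libraries LOC121429458, the most abundant member, varied 1.14-fold between matings, with means of 22851 ± 7133, 25295 ± 7832 and 21926 ± 5286 whose spread was that between treatments. The p-values for matings measure the spread over 3 treatments of single cultures, and no mating was cultured or sequenced in replicate for the same treatment. Of the 12 members called with either drug (blocked fit, adjusted p under 0.05), 8 also differed between matings (66.7%), a share near that of all members tested.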

How the data were processed

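HISAT2 (version not given in the sources used here) was the authors' aligner, and they deposited raw counts per gene and FPKM values, which divide counts by gene length and library size. No replicates were pooled. Gene positions equalled those of RefSeq for all 26814 genes. The members, marker lists and comparison lists were chosen with earlier results of these data known.

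The main fits were made with edgeR 4.0.16 in R 4.3.3 (filterByExpr, TMM, quasi-likelihood test) on the whole count table, using the 6 libraries of each pair of treatments and no mating term. A call was an unadjusted p of at most 0.05, the study's own threshold, and Benjamini-Hochberg values cover every gene tested. Matings were tested over 9 libraries with treatment as a term (adjusted p under 0.05), and ranges and shares of variation used log2 CPM with a prior count of 2. The fits were run on simulated data with the same dispersion and mating spread for every gene. Genes of few counts were left out there, so it does not cover the members of low level. The rule for named members took LOC121417344, LOC121408415, those called with each drug, the lowest p in the blocked fits and between matings, the 10 highest in FPKM and the 5 most even over matings, 28 in all. Neighbours of these and others stated as such were named after their values were seen.

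Replicate sets came from separate matings according to the study's methods, so libraries of the same number share parents. After removal of treatment means, log2 CPM correlated with r of 0.706 to 0.750 within matings (9 pairs) and -0.420 to -0.327 between them (18 pairs). The replicate block (mating) was therefore fitted as well. Other alternatives were RLE, other filters, DESeq2 1.42.0, limma 3.58.1 on log2(FPKM + 1), 1 fit of all 9 libraries, and each library left out. A gene at 0 was limited at 3 counts per library. Intervals from counts are exact and cover counting error only.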

Additional observations from a re-analysis of the deposited data

How the results depend on the processing

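The number of members called depended on whether the mating was a term and on the threshold. Over all genes the block raised the share called at the unadjusted threshold too. It went from 2.45 to 13.2% in K02288 against DMSO, from 4.85 to 17.8% in axitinib against DMSO, and from 4.99 to 19.6% in K02288 against axitinib. With the replicate block, the unadjusted count was 15 in K02288 against DMSO (15 with RLE), 17 in axitinib against DMSO (17 with RLE) and 14 in K02288 against axitinib (15 with RLE), where it was 6, 10 and 6 without the block. At an adjusted p under 0.05 without the block the counts were 0, 2 and 2. K02288 against axitinib gave 3 of 38 members tested with at least 10 counts in every library. That filter leaves out LOC121417344 and LOC121417363, whose axitinib counts were 7, 5 and 7, and 8, 2 and 1, so neither could be called there. Leaving out 1 library gave 4 to 9, 8 to 10 and 4 to 5 members without the block, and 13 to 15, 13 to 18 and 12 to 15 with it, the last set and the block with RLE being chosen after seeing the data. The K02288 count was 4 without DMSO replicate 1, DMSO replicate 3 or K02288 replicate 2, and 9 without DMSO replicate 2. The cause of these shifts was not tested. The count of 39 of 55 between matings ran from 31 to 39 with a library left out, and was 27 of 55 without the treatment term. It was 26 of 37 with at least 10 counts in every library, 34 of 61 in DESeq2, 34 of 60 in limma and 41 of 61 without a filter. Shares over all genes were not counted for these alternatives, nor for any fit with a library left out. No called value changed direction in the alternatives run. Some values that were not called did, with a library left out of the main fit. Among them was LOC121406844 in K02288 against DMSO (-0.14, and 0.25 without DMSO replicate 1) and in axitinib against DMSO (0.19, and -0.09 without axitinib replicate 1). So were LOC121421215 in K02288 against DMSO (-0.06, and 0.26 without DMSO replicate 3) and LOC121408477 in K02288 against axitinib (0.25, and -0.25 without K02288 replicate 1). Among named members, limma no longer called LOC121417344 in K02288 or LOC121421214 in axitinib, DESeq2 additionally called LOC121408477 in K02288, and LOC121415361 no longer differed between matings without the treatment term. Depth limits the 23 members below 1 FPKM, whose differences rest on few counts.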
